A study of Mus musculus with 36 samples.

Results

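The cytoplasm of mouse embryonic fibroblasts (MEFs) at day 3 of reprogramming was compared between cells with a knockdown of Nudt21 (Nudt21 KD) and control cells. The 4 libraries were chosen by their column labels in the deposited table of read counts over refGene exons, 2 for Nudt21 KD and 2 for the control, out of 36 samples in the whole series. The study sorted P-bodies, cytoplasmic condensates of RNA and protein, from several mouse cell types and sequenced their RNA beside that of the cytoplasm. The knockdown addressed whether a shift of polyadenylation towards proximal sites alters the RNA held in P-bodies of reprogramming MEFs, and the cytoplasm libraries are the measure of RNA level behind that question.

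All 4 libraries came from MEFs of E13.5 embryos that carried a doxycycline-inducible cassette with Oct4, Klf4, Sox2 and c-Myc (OKSM) in the 3′ UTR of Col1a1, the M2-rtTA activator at Rosa26 and an EGFP reporter driven by Pou5f1 elements. The cells also carried a lentiviral GFP-LSM14A fusion, which labels P-bodies, and were kept for 3 days in doxycycline with serum, LIF and ascorbic acid. Nudt21 KD cells received in addition a short hairpin RNA (shRNA) against Nudt21 on a vector with mCherry and puromycin resistance. Whether the control carried another shRNA is not given in the sources used here, so the effect of the hairpin and that of the vector and its selection cannot be told apart. Detergent lysates were spun to remove nuclei, and the pelleted and resuspended material served as the cytoplasm from which P-bodies were then sorted. Reads of the OKSM cassette and of the endogenous Pou5f1, Sox2, Klf4 and Myc genes cannot be told apart in these counts, and neither can those of the fusion and of Lsm14a.

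Nudt21 encodes the small subunit of cleavage factor Im (CFIm), which binds UGUA elements upstream of poly(A) sites together with the CPSF6 or CPSF7 protein. In many transcripts CFIm favours the distal of several poly(A) sites, and its loss is known to shorten 3′ UTRs. Shorter 3′ UTRs can lack sites for microRNAs such as let-7 and for RNA-binding proteins. Reprogramming of MEFs is known to begin with a loss of fibroblast genes and a gain of epithelial genes, and pluripotency genes follow later. The values here are exon reads per gene and do not separate transcripts with long and short 3′ UTRs.

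The control libraries held 26740715 and 25987158 assigned reads, and the Nudt21 KD libraries 30752622 and 21148980. Levels are counts scaled to the library's assigned reads (CPM), and fold changes are log2 (Nudt21 KD over control) from a fit of edgeR's quasi-likelihood test to all genes, given with their standard error (SE). Genes with an adjusted p (Benjamini-Hochberg) below 0.05 are called. Replicates correlated at Spearman 0.995 (control) and 0.994 (Nudt21 KD) over genes, and their counts differed beyond sampling noise (chi-square over degrees of freedom 4.98 and 7.69). The study's methods call the replicates of its sequencing assays biological, but no label says whether these libraries came from separate cultures, and p-values measure only the spread between them.

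Of 15990 genes tested, 7934 (49.6%) were called, 3930 higher (24.6%) and 4004 lower (25.0%) in Nudt21 KD. A change of at least 1 on the log2 scale was reached by 1155 higher genes (7.22%) and 1164 lower genes (7.28%). The 2 groups did not overlap in CPM for 11851 genes (74.1%). With so many genes called, the counts of every gene group below are read against these shares. The median log2 fold change over all genes tested was −0.01. Fold changes are scaled between libraries, so this value does not show whether total RNA changed.

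**Figure D1:**
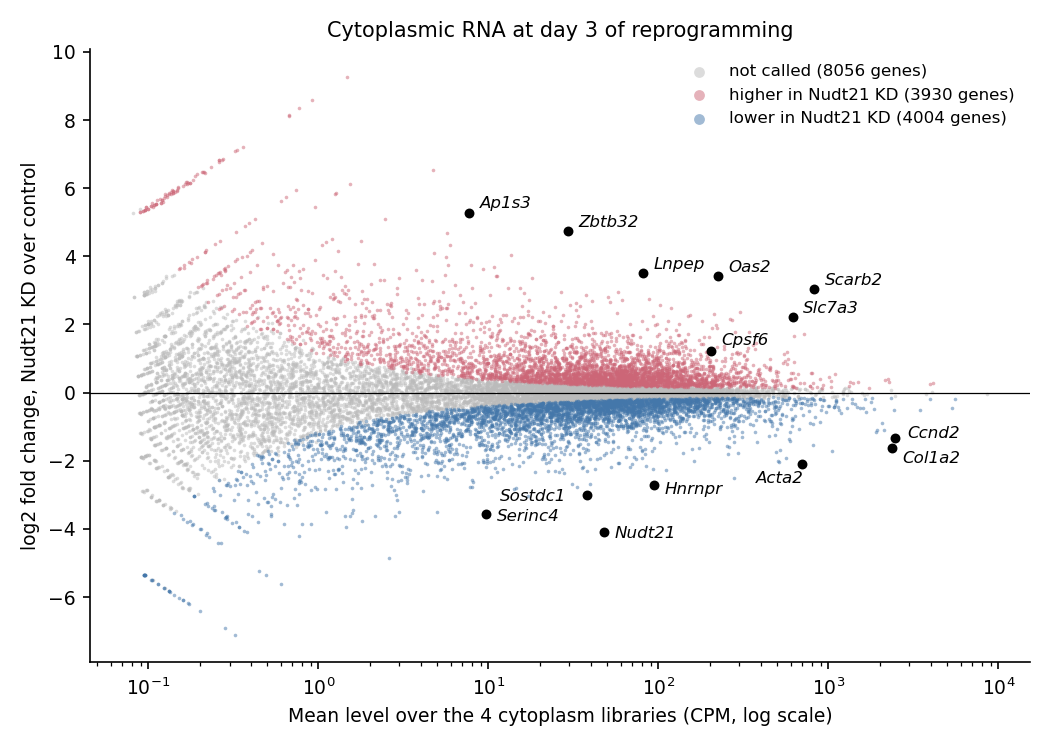
Each point is 1 of the 15990 genes tested in day 3 cytoplasm, with the mean CPM of the 4 libraries (log scale) on the horizontal axis and the log2 fold change of Nudt21 KD over control on the vertical axis. Called genes are coloured by direction, 3930 higher and 4004 lower, and black points mark genes named in the text, among them Nudt21 at −4.08 and Scarb2 at 3.03.

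The targeted gene was low in both knockdown libraries. Nudt21 (chr8:94019403-94037039, mm10, RefSeq) stood at 89.1 and 92.2 CPM in the control and at 5.72 and 5.01 CPM in Nudt21 KD. It fell by 4.08 on the log2 scale (SE 0.11, adjusted p = 6.18e-14, edgeR), which made the control 16.9-fold higher. The partner subunits went the other way. Cpsf6 rose from 124 and 118 CPM to 281 and 295 CPM, a log2 fold change of 1.23 ± 0.07 (SE, adjusted p = 1.41e-10, edgeR). Cpsf7 rose from 25.3 and 25.7 CPM to 29.8 and 34.1 CPM, a log2 fold change of 0.30 ± 0.11 (SE, adjusted p = 0.0258, edgeR). The Cpsf7 call was lost without the first or the second control library (adjusted p = 0.0729 and 0.0576) or without the second Nudt21 KD library (log2 fold change 0.21, adjusted p = 0.178, edgeR). Among all 22 cleavage and polyadenylation factors, Nudt21 included, 15 rose, 3 fell and 4 were not called, and their median log2 fold change was 0.29.

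Cstf2, the RNA-binding subunit of the cleavage stimulation factor, rose from 67.1 and 64.3 CPM to 115 and 109 CPM (log2 fold change 0.75 ± 0.07). Cpsf4, a subunit of the complex that recognises the poly(A) signal, had a log2 fold change of 0.75 ± 0.10, and Rbbp6, an activator of cleavage, 0.65 ± 0.07. In contrast, Cpsf3, the endonuclease that cleaves the precursor RNA, fell from 154 and 162 CPM to 118 and 117 CPM.

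Of 12 genes known as targets of CFIm-dependent polyadenylation, 7 rose, 3 fell and 2 were not called, with a median log2 fold change of 0.26. Wdr5, a subunit of histone H3 lysine methyltransferase complexes, rose from 94.5 and 95.6 CPM to 236 and 220 CPM (2.37-fold). Vma21, an assembly factor of the lysosomal proton pump, rose from 66.8 and 60.8 CPM to 127 and 133 CPM. In contrast, Timp2, an inhibitor of matrix metalloproteinases, fell from 559 and 557 CPM to 202 and 208 CPM, and Pak1 and Fhl1 also fell, by 0.84 and 0.31 on the log2 scale.

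The letters that CFIm binds are given in DNA form (TGTA, in capitals) for 3 genes that rose, Vma21 and Wdr5 of that list and Lnpep, among the genes with the largest rise. Each line is a 30-base stretch of the gene's longest annotated 3′ UTR, 5′ to 3′ on the gene's strand, taken from GENCODE M21 transcripts (GRCm38, the assembly of mm10), and is the window within the last 150 bases that holds the most copies.
Vma21: TGTAgtcagtatatTGTAgccTGTAattta
Wdr5: TGTAgatttaTGTAaaaatacattctcttt
Lnpep: TGTAtaTGTAatatTGTAtatgcaaattgt
These windows lie at chrX:71824630-71824659 (plus strand), chr2:27536477-27536506 (plus strand) and chr17:17521517-17521546 (minus strand), and end 47, 29 and 107 bases before the distal end. At least 2 TGTA copies stood in the last 150 bases of the 3′ UTR in 36.5% of the genes that rose, 33.2% of those that fell and 32.6% of all 14324 tested genes with an annotated 3′ UTR. A match describes the letters in the window, not a site in use.

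**Figure D2:**
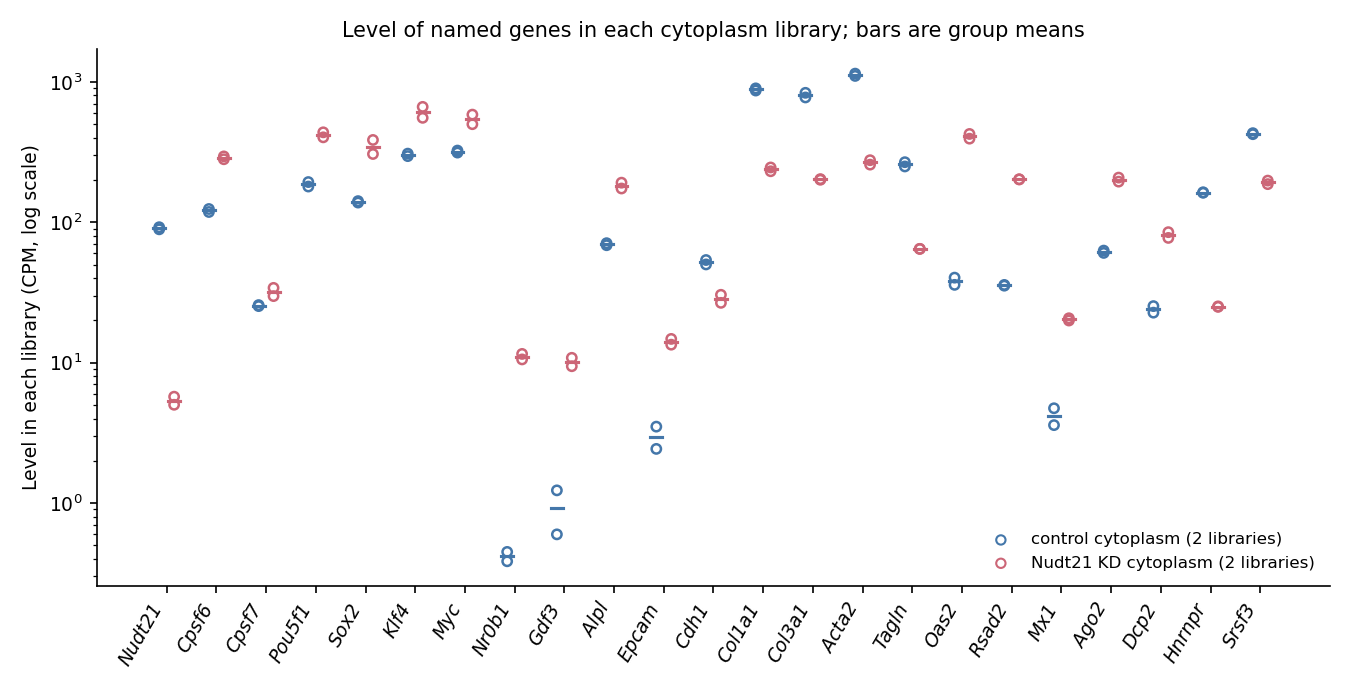
Level of 23 genes named in the text in each of the 4 cytoplasm libraries, in CPM on a log scale; points are libraries and bars are group means. For every gene drawn, the control and Nudt21 KD points lie apart, as they do for 74.1% of all genes tested. The genes were mostly chosen among called genes, so their separation is not a result of its own. Nudt21 stood at 89.1 and 92.2 CPM against 5.72 and 5.01 CPM.

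The genes with the largest fold changes, among those with a mean of at least 10 CPM in the higher group, came from many families. Ap1s3, a small subunit of the AP-1 clathrin adaptor, stood at 0.337 and 0.423 CPM in the control and 16.6 and 13.6 CPM in Nudt21 KD (log2 fold change 5.28 ± 0.26, adjusted p = 3.53e-11, edgeR). Zbtb32, a zinc finger repressor of transcription, stood at 2.62 and 1.5 CPM against 56.4 and 56.6 CPM (4.75 ± 0.16). Nr0b1, a nuclear receptor of the ES cell network, stood at 0.449 and 0.385 CPM against 11.5 and 10.5 CPM (4.70 ± 0.26). The control level of these 3 genes was at most 2.62 CPM, and the knockdown level was similar in both replicates.

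Acpp (a secreted and lysosomal acid phosphatase), Slc28a1 (a nucleoside transporter), Ly6g6c, Mirt1 (a long noncoding RNA), Ttn (the sarcomere protein titin), Lepr (the leptin receptor), Ly6g6f and Gdf3 (a TGF-β family ligand of pluripotent cells) followed, with log2 fold changes from 4.33 down to 3.45. Lnpep, a membrane aminopeptidase whose 3′ UTR window is printed above, rose 11.3-fold, from 14.8 and 11.4 CPM to 153 and 148 CPM.

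By the difference in CPM, Scarb2 led the genes that rose. Scarb2, a lysosomal membrane protein that carries glucocerebrosidase to lysosomes, went from 184 and 173 CPM to 1541 and 1405 CPM (8.15-fold, log2 fold change 3.03 ± 0.06, adjusted p = 5.75e-15, edgeR). Slc7a3, a transporter of cationic amino acids, went from 219 and 215 CPM to 1062 and 978 CPM (4.64-fold). Lamc1, the laminin γ1 chain, rose 3.31-fold and Slc39a14, a zinc and iron transporter, 3.20-fold. Smaller shifts of abundant genes made up the rest of this group, namely Ftl1 (ferritin light chain), Hspa8 (a constitutive HSP70), Aldh3a1 (an aldehyde dehydrogenase) and Col4a1 (a collagen of basement membranes), with log2 fold changes of 0.26 to 0.41. Ftl1 and Hspa8 have near-identical pseudogenes, and how reads shared with copies were divided was not stated.

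After Nudt21 itself, the largest fall among genes with a mean of at least 10 CPM in the higher group was that of Serinc4, from 16.7 and 19.2 CPM to 1.76 and 1.23 CPM (11.9-fold). Shisa2, which retains FGF and Wnt receptors inside the cell, fell 8.21-fold, and Sostdc1, an antagonist of BMP and Wnt signals, fell 8.0-fold. Bmp4, a BMP ligand, went from 14.1 and 13.2 CPM to 1.72 and 2.36 CPM. RNA-binding proteins formed part of this group. Hnrnpr fell from 164 and 162 CPM to 25.2 and 25.0 CPM, Hnrnpa0 from 24.8 and 25.6 CPM to 3.22 and 4.16 CPM, and Rbms3 from 59.3 and 57.0 CPM to 8.78 and 8.37 CPM. The 12 also held Kirrel3 (a cell adhesion protein), Gdpd2, Map3k15 (a kinase) and Cdkn1c (a cyclin-dependent kinase inhibitor), with log2 fold changes between −2.83 and −2.67. By the difference in CPM, the falls were those of Col1a2, Ccnd2, Thbs1 (thrombospondin 1), Vim (vimentin), Sparc (a collagen-binding matrix protein), Fn1 (fibronectin), Actb (β-actin) and Anxa2 (annexin A2). Actb was at 6086 and 6102 CPM in the control and 4696 and 4413 CPM in Nudt21 KD.

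All 4 reprogramming factors rose. Sox2 went from 138 and 141 CPM to 306 and 386 CPM, a log2 fold change of 1.29 ± 0.09 (adjusted p = 2.20e-09, edgeR). Pou5f1, which encodes Oct4, went from 193 and 180 CPM to 403 and 437 CPM (1.15 ± 0.07). Klf4 and Myc had log2 fold changes of 0.99 ± 0.07 and 0.75 ± 0.07. The knockdown libraries lay above the control libraries for each factor, and the factors' order of change was not tested. Since the cassette encodes all 4 factors, these reads can include those of the transgene. Col1a1, whose 3′ UTR holds the cassette, fell from 867 and 899 CPM to 231 and 246 CPM.

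Among the pluripotency genes, 21 of 28 had enough reads for the test, and 12 rose, 2 fell and 7 were not called (median log2 fold change 0.87). Beside Nr0b1 and Gdf3, the largest changes were those of genes with very few reads. Tdgf1, a Nodal co-receptor, had 0 reads in the control and 8 and 2 reads in Nudt21 KD. With 3 reads over the control group taken as the floor, the ratio was 3.39. Lin28b, an RNA-binding protein that blocks let-7 maturation, had 0 and 3 reads against 34 and 11, a ratio of 15.2 with a 95% counting interval of 5.21 to 73.9. Alpl, the alkaline phosphatase used as an early marker of reprogramming, rose from 68.6 and 71.0 CPM to 191 and 174 CPM. In contrast, Klf5 fell from 18.0 and 19.5 CPM to 11.4 and 12.6 CPM, and Nanog, a core pluripotency factor, was near the floor in all 4 libraries, with 2 and 15 reads in the control and 0 and 1 in Nudt21 KD. Tdgf1 is among the 12 genes counted as higher and Nanog among the 2 counted as lower, and neither call was stable. The Tdgf1 call was lost without either control library (adjusted p = 0.126 and 0.122, edgeR) and the Nanog call without the first Nudt21 KD library (adjusted p = 0.156, edgeR). Both were also lost with DESeq2 (adjusted p = 0.132 for Tdgf1 and 0.107 for Nanog), with no filter on low counts (0.0892 and 0.0589, edgeR) and with the replicate number as a block (0.0737 and 0.0693, edgeR). Such intervals and floors cover counting error in the group with fewer reads only, and take the reads of the other group as exact.

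Epithelial genes moved similarly, with 12 of 23 tested higher, 2 lower and 9 not called (median 0.92). Epcam, an epithelial adhesion molecule, rose from 2.43 and 3.50 CPM to 14.8 and 13.4 CPM, a 4.71-fold rise. Ocln and Cldn4, components of tight junctions, were nearly unread in the control. Ocln had 1 and 0 control reads against 32 and 28 reads in Nudt21 KD, and Cldn4 had 0 against 21 and 13. With the same floor of 3 control reads, the ratio for Cldn4 was 11.5. Grhl2, a regulator of epithelial genes, also rose, from 0.299 and 0.115 CPM to 1.40 and 1.04 CPM. However, Cdh1, the epithelial cadherin, fell from 50.1 and 53.8 CPM to 30.4 and 26.7 CPM (log2 fold change −0.88 ± 0.10, adjusted p = 1.08e-06, edgeR), and Krt19, a keratin, fell by 0.61 on the log2 scale.

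Fibroblast genes fell together. Of 25 mesenchymal and fibroblast genes, 19 fell, 1 rose and 5 were not called (median −0.99), against 25.0% lower among all genes tested. In bulk samples, fewer cells of a type and less RNA per cell cannot be told apart. Cdh11, a mesenchymal cadherin, fell from 145 and 137 CPM to 44.0 and 42.4 CPM. Tnc, the matrix protein tenascin C, fell from 799 and 789 CPM to 248 CPM in both libraries, and Pdgfrb, a growth factor receptor, and Postn, periostin, fell by 1.61 and 1.45 on the log2 scale. The member that rose was Cdh2, N-cadherin (log2 fold change 0.32 ± 0.07). Among 20 collagen genes, 15 fell, 1 rose and 4 were not called (median −0.99). Col3a1 fell from 836 and 774 CPM to 203 and 201 CPM (4.04-fold), Col16a1, Col11a1 and Col12a1 fell by 1.98, 1.92 and 1.92 on the log2 scale, and Col4a1 was the member that rose.

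Contractile genes and targets of serum response factor showed the lowest list median, −1.20, with 15 of 18 tested lower, 2 higher and 1 not called. Acta2, smooth muscle actin, fell from 1102 and 1145 CPM to 277 and 257 CPM (4.26-fold), and Tagln, transgelin, from 250 and 268 CPM to 64.6 CPM in both libraries. Mylk (myosin light chain kinase) and Acta1 (skeletal actin) also fell from low levels. Srf itself rose from 39.6 and 41.3 CPM to 51.4 and 49.9 CPM. Actin genes are close in sequence, so part of their reads may be shared.

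Of 18 genes known to respond to YAP or TGF-β, 13 fell, 2 rose and 3 were not called (median −1.06). Tgfbi, a secreted matrix protein, fell from 121 and 112 CPM to 30.6 and 30.5 CPM. Ccn2, a matricellular growth factor, fell from 376 and 378 CPM to 132 and 125 CPM, and Edn1, endothelin 1, and Tgfb3, a TGF-β ligand, fell by 1.63 and 1.36 on the log2 scale. Skil, a repressor of SMAD proteins, rose from 32.0 and 28.5 CPM to 135 and 127 CPM (4.27-fold).

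**Figure D3:**
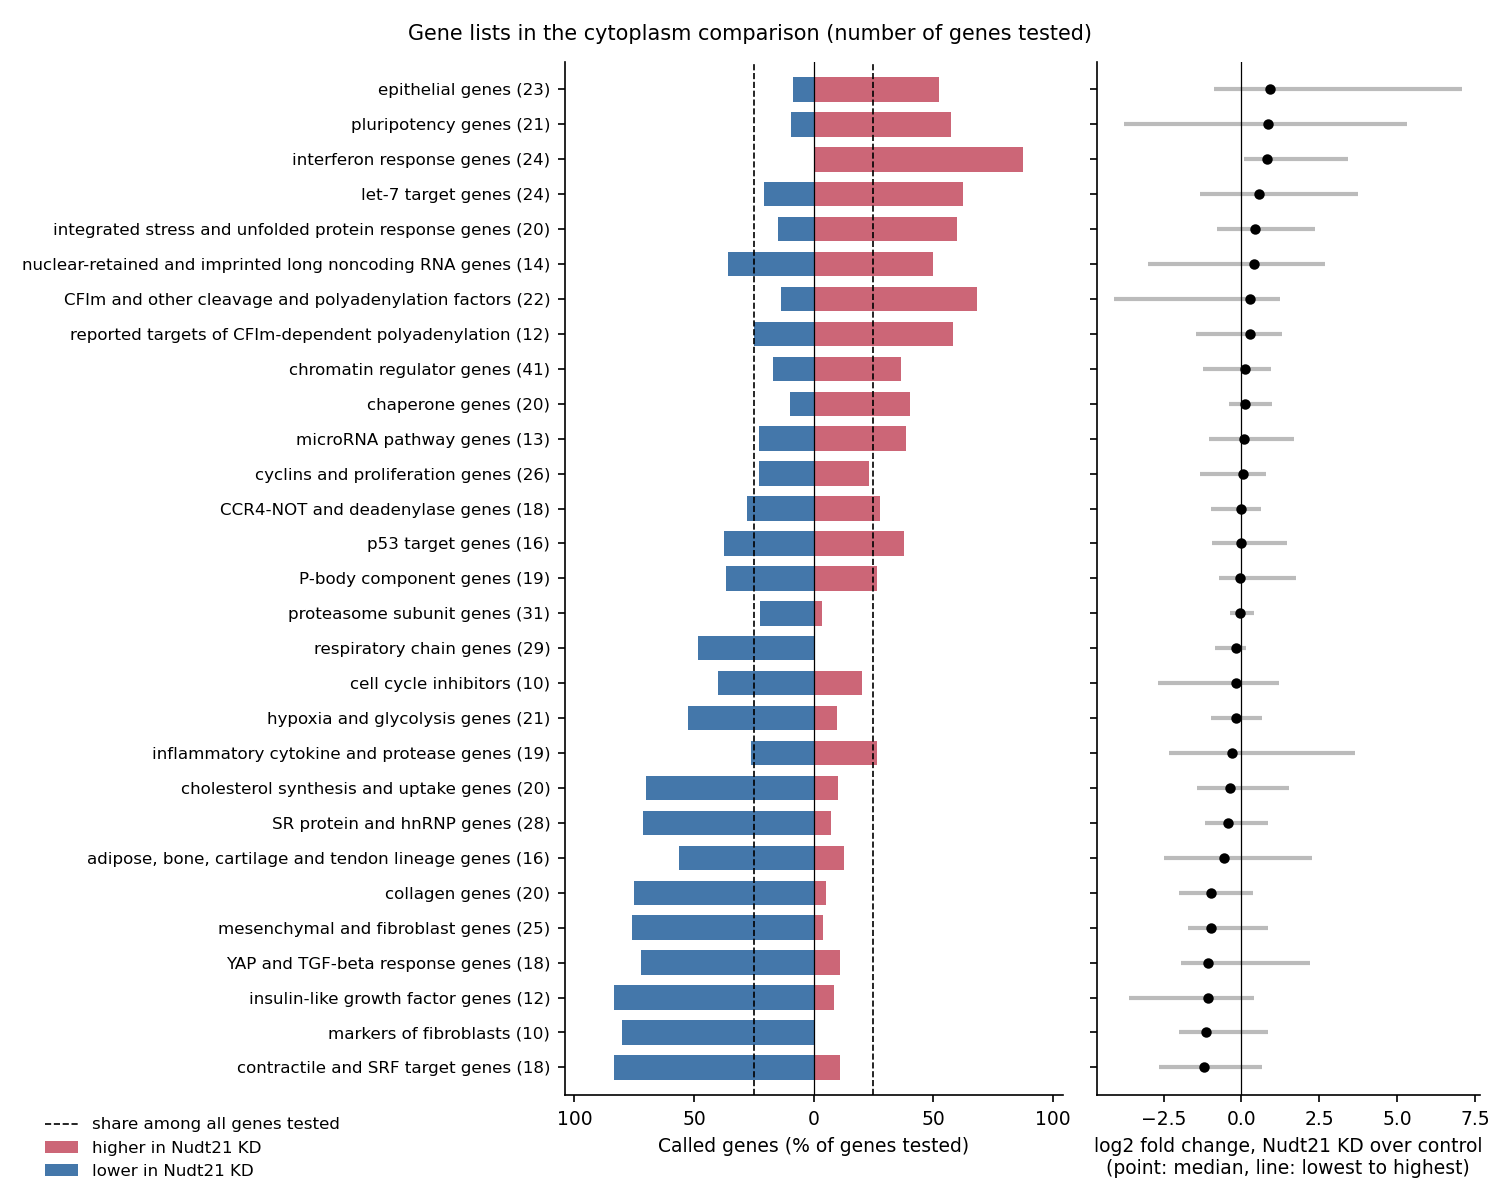
Left, for each list with at least 10 tested genes, share of those genes called higher (right of 0) or lower (left of 0) in Nudt21 KD, in percent, with dashed lines at the shares among all genes tested, 24.6% and 25.0%. Right, median log2 fold change of the list (point) with its lowest and highest member (line); interferon response genes stand out with 21 of 24 higher, and contractile genes have the lowest median, −1.20.

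The fall of fibroblast genes was also seen across genes that other libraries of the series separate. Genes were grouped by the cytoplasm of uninduced MEFs and of naive ES cells, which were not part of the knockdown comparison. Of 1358 genes at least 4-fold higher in MEF cytoplasm, 54.3% fell and 18.3% rose in Nudt21 KD, with a median log2 fold change of −0.42. Of 1087 genes at least 4-fold higher in naive ES cell cytoplasm, 19.96% fell and 32.6% rose, with a median of 0.15. For the 6885 other genes with at least 10 CPM in all 4 of those libraries, 27.9% fell and 30.1% rose, and the median was 0.01. The share of ES cell genes that rose was thus near that of these other genes, while a smaller share fell. A rise of at least 1 on the log2 scale was found for 14.7% of the ES cell genes, 3.39% of the MEF genes and 3.01% of the other genes. A fall of that size was found for 7.18%, 21.9% and 2.22%. The ES cell genes thus reached that size more often than the other genes in both directions. The uninduced MEFs were not the same cells as the day 3 MEFs. The summed level of 4 Y-linked genes (Ddx3y, Eif2s3y, Kdm5d and Uty, chosen after their values were seen) was 225 to 292 CPM in the 4 uninduced MEF libraries and at most 0.583 CPM in the 8 day 3 libraries of both conditions, so a difference between cell preparations cannot be told apart from that of induction.

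Interferon response genes had the largest share of genes that rose of any list with at least 10 tested genes. Of 24 genes, 21 rose, 0 fell and 3 were not called (median 0.81). Oas2, an oligoadenylate synthetase that senses double-stranded RNA, rose from 35.8 and 40.3 CPM to 426 and 394 CPM (10.6-fold, log2 fold change 3.41 ± 0.08, adjusted p = 9.74e-15, edgeR). Rsad2, the antiviral enzyme viperin, rose from 35.3 and 35.8 CPM to 203 and 202 CPM (5.62-fold). Mx1, an antiviral GTPase, rose from 3.59 and 4.73 CPM to 20.7 and 19.95 CPM, and Oasl1 from 10.1 and 11.2 CPM to 31.1 and 31.7 CPM. The list was already well read in the control, and the size of the rise differed between members. Chosen after their values were seen, Stat2, part of the factor that drives these genes, rose by 1.43 on the log2 scale, Bst2 (tetherin) by 1.37, Oas1a by 0.89 and Isg15 by 0.43, while Ifit2, Ifit3 and Cxcl10 were not called, with log2 fold changes of 0.09, 0.20 and 0.08.

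Promoters of several of these genes hold the interferon-stimulated response element, searched here as GAAANNGAAA on either strand in the 250 bases before and 50 bases after the start site of RefSeq genes (GRCm38.p6). It was present in 3.99% of all 27025 promoters and in 3.71% of those of 12355 tested genes. Of 18 interferon response genes with a promoter in the table, 10 held it. Of these 10, 8 rose, and of the 8 without it, 7 rose. Among all genes called, it stood in 4.73% of the promoters of genes that rose and 3.02% of those of genes that fell. The windows below are shown because they carry the element in members that rose, with its letters in capitals (the reverse complement where the element is on the other strand), 5′ to 3′ on the gene's strand.
Rsad2: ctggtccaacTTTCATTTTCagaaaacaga
Stat2: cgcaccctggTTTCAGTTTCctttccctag
Bst2: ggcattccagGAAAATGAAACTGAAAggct
Oas1a: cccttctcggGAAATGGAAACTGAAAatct
Isg15: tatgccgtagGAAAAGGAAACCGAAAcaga
They lie at chr12:26456553-26456582, chr10:128270266-128270295, chr8:71537583-71537612, chr5:120907526-120907555 and chr4:156200877-156200906, on the minus strand except for Stat2. The elements of Bst2, Oas1a and Isg15 overlap a second copy. A match describes letters only.

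Of 20 genes of the integrated stress and unfolded protein responses, 12 rose, 3 fell and 5 were not called (median 0.44). Ero1l, an oxidase of the endoplasmic reticulum, rose from 97.5 and 95.7 CPM to 514 and 503 CPM (5.20-fold). Slc7a11, the cystine transporter, rose from 7.33 and 7.97 CPM to 29.0 and 26.5 CPM, Dnajb9, a co-chaperone of the endoplasmic reticulum, by 1.59 on the log2 scale, and Chac1, a glutathione-degrading enzyme, by 1.06. In contrast, Xbp1, a transcription factor of the unfolded protein response, fell from 85.2 and 83.4 CPM to 55.8 and 54.6 CPM, and Hsp90b1, a chaperone of the endoplasmic reticulum, fell by 0.25 on the log2 scale. Of 20 chaperone genes, 8 rose, 2 fell and 10 were not called, with a median of 0.11. Hspa1a, an inducible HSP70, rose from 13.3 and 13.7 CPM to 24.1 and 30.2 CPM. Cct3, a subunit of the CCT chaperonin, rose from 849 and 845 CPM to 1210 and 1124 CPM, Hspa1b and Hsph1 also rose, and Hspb1, a small heat shock protein, fell by 0.41 on the log2 scale.

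Metabolic lists leaned downwards. In cholesterol synthesis and uptake, 14 of 20 genes fell, 2 rose and 4 were not called (median −0.38). Nsdhl, a late enzyme of the pathway, fell from 26.1 and 26.9 CPM to 11.6 and 7.90 CPM. Sqle (squalene epoxidase), Fdps and Idi1 fell by 1.02, 0.90 and 0.89 on the log2 scale. In hypoxia and glycolysis, 11 of 21 genes fell and 2 rose (median −0.17), with Bnip3, Ndrg1, Slc2a1 (the glucose transporter GLUT1) and Pfkl (phosphofructokinase) between −0.97 and −0.65. The members that rose, Hk2 (hexokinase 2) and Pfkp (platelet phosphofructokinase), catalyse early steps of glycolysis.

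Genes of the respiratory chain shifted little but in 1 direction. Of 29 genes, 14 fell, 0 rose and 15 were not called, with a median of −0.16. Ndufs3 of complex I had the lowest value and fell from 104 and 101 CPM to 56.3 and 59.1 CPM, and Ndufb5, Sdhd and Sdhc fell by 0.54 to 0.56. Of 31 proteasome subunit genes, 7 fell (Psmb1 by 0.38 on the log2 scale), 1 rose (Psmd11, 0.41 ± 0.06) and 23 were not called (median −0.04), which is fewer calls than the 49.6% among all genes tested.

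Splicing factors fell more often than genes at large. Of 28 SR protein and hnRNP genes, 20 fell, 2 rose and 6 were not called (median −0.42). Srsf3 fell from 431 and 424 CPM to 187 and 198 CPM (2.25-fold), Hnrnpa2b1 from 574 and 581 CPM to 332 and 319 CPM, Srsf1 from 190 and 180 CPM to 107 and 103 CPM, and Hnrnpd by 0.78 on the log2 scale. Rbfox2, a regulator of alternative splicing, rose from 82.2 and 81.1 CPM to 155 and 144 CPM. Hnrnpr and Hnrnpa0 described above were not in this list and fell further.

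Genes that act in P-bodies and in mRNA decay were called in both directions, as genes at large were. Of 19 P-body component genes, 5 rose, 7 fell and 7 were not called (median −0.03), which is 26.3% higher and 36.8% lower against 24.6% and 25.0% of all genes. Dcp2, the enzyme that removes the cap, rose from 25.3 and 22.7 CPM to 77.4 and 85.0 CPM (3.34-fold, log2 fold change 1.74 ± 0.10, adjusted p = 1.61e-10, edgeR). Its activator Dcp1a and the exonuclease Xrn1 rose by 0.50 and 0.36 on the log2 scale. Pnrc2 (a decapping cofactor), Lsm6 and Lsm3 (of the ring that binds RNA 3′ ends) fell by 0.64, 0.61 and 0.43. Of 18 CCR4-NOT and deadenylase genes, 5 rose, 5 fell and 8 were not called (median −0.01). That is 27.8% in each direction, near the shares of all genes. Cnot8, a deadenylase subunit, rose from 94.8 CPM in both control libraries to 151 and 148 CPM, and Cnot7, its paralog, and Pan3, a poly(A) nuclease subunit, rose by 0.39 and 0.61 on the log2 scale. Btg2 and Tob1, which recruit the deadenylase, fell from 250 and 244 CPM to 124 and 129 CPM and from 85.2 and 91.9 CPM to 42.9 and 47.9 CPM, while Pan2 fell by 0.96 and Btg1 by 0.77 on the log2 scale.

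In the microRNA pathway, 5 of 13 genes rose, 3 fell and 5 were not called (median 0.09). Ago2, the Argonaute with slicing activity, rose from 62.8 and 60.5 CPM to 195 and 208 CPM (3.23-fold, adjusted p = 8.37e-12, edgeR). Dicer1, which cuts microRNA precursors, rose from 62.2 and 58.2 CPM to 95.7 and 92.0 CPM, and Ago3 and Dgcr8 rose by 0.79 and 0.48 on the log2 scale. Drosha, the nuclear processing enzyme and partner of Dgcr8, fell from 104 and 103 CPM to 68.1 and 65.0 CPM, as did Tnrc6b, a silencing scaffold, by 0.67, and Prkra, a Dicer partner, by 1.04.

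The let-7 microRNAs share a seed, bases 2 to 8 of the mature RNA, printed in capitals for let-7a and let-7i, mature sequences from RefSeq.
mmu-let-7a-5p: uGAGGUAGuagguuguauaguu
mmu-let-7i-5p: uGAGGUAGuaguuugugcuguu
Of 10 mature mouse let-7 RNAs in the table, 9 carry the seed GAGGUAG. The matching site in a 3′ UTR reads CTACCTC and stands in 10.5% of the tested genes with an annotated 3′ UTR. Of 24 tested genes in a list of let-7 targets, 17 hold it, with 39 sites in all. Sites of members that rose (Arid3b, Nr6a1) and of a member that fell (Igdcc4) are shown in 24-base windows of the 3′ UTR from GENCODE M21.
Arid3b: tatttcaataaagctCTACCTCtt
Nr6a1: gagactgtggagcagCTACCTCca
Igdcc4: ttcctaacaacatgaCTACCTCat
They lie at chr9:57790360-57790383 (minus strand), chr2:38727718-38727741 (minus strand) and chr9:65136321-65136344 (plus strand). Sites with the same letters were thus found in members of both directions.

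Of the 24 let-7 targets, 15 rose, 5 fell and 4 were not called (median 0.58). Plag1, a growth-promoting transcription factor, rose from 1.16 and 1.04 CPM to 5.59 and 5.67 CPM. Arid3b, a DNA-binding protein, rose from 19.4 and 20.8 CPM to 47.4 and 46.1 CPM, and Nr6a1, the germ cell nuclear factor, with 8 sites, from 9.80 and 7.97 CPM to 19.3 and 17.7 CPM. Ccnd2, cyclin D2, fell from 3472 and 3535 CPM to 1366 and 1436 CPM (2.53-fold), and Igdcc4, a membrane protein, from 39.5 and 34.6 CPM to 16.1 and 16.3 CPM. Over all tested genes with an annotated 3′ UTR, a site was present in 13.9% of those that rose and 9.39% of those that fell. Since longer 3′ UTRs hold more sites, the same was read within 5 bins of 3′ UTR length, given as a description. From the shortest to the longest bin, 22.9%, 29.0%, 30.1%, 28.2% and 40.6% of genes with a site rose, against 17.1%, 20.1%, 25.9%, 28.2% and 34.4% of genes without one. The share that fell was 18.8%, 27.5%, 25.8%, 28.2% and 20.4% with a site and 28.5%, 28.8%, 26.6%, 26.1% and 24.4% without one. In the fourth bin the shares that rose were both 28.2%, and the shortest bin held only 48 genes with a site. Length still differed within the longest bin, with a median 3′ UTR of 4152 bases for genes with a site and 3519 bases for genes without.

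The share of genes called higher went up with annotated 3′ UTR length. An annotated 3′ UTR was found for 14324 of the 15990 genes tested (89.6%), and the genes were split into 5 bins of equal size by their longest one. The share that rose was 17.2%, 20.6%, 26.3%, 28.2% and 35.8% from the shortest to the longest bin, whose median 3′ UTR lengths were 216, 596, 1146, 1953 and 3642 bases. The share that fell was 28.4%, 28.7%, 26.5%, 26.4% and 23.5%, and the median log2 fold change ran from −0.09 to 0.10. For changes of at least 1 on the log2 scale the trend was not steady. The share higher by that much was 6.49%, 5.83%, 6.11%, 6.91% and 10.7%, above the others in the longest bin alone, and the share lower by that much was 6.98%, 7.68%, 7.82%, 8.06% and 6.95%. The median 3′ UTR was 1508 bases for genes that rose and 1053 bases for genes that fell. Transcript length and GC content moved with it. In bins of transcript length the share that rose ran from 14.3% to 36.9%, and in bins of GC content it went from 31.4% in the lowest to 18.7% in the highest. Over genes, which are not independent replicates, Spearman's ρ with the log2 fold change was 0.09 for 3′ UTR length, 0.12 for transcript length and −0.11 for GC content. Their separate parts in the trend were not tested. An exon count is also lowered directly when a transcript loses part of its 3′ UTR, which these counts do not separate from a lower number of molecules.

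**Figure D4:**
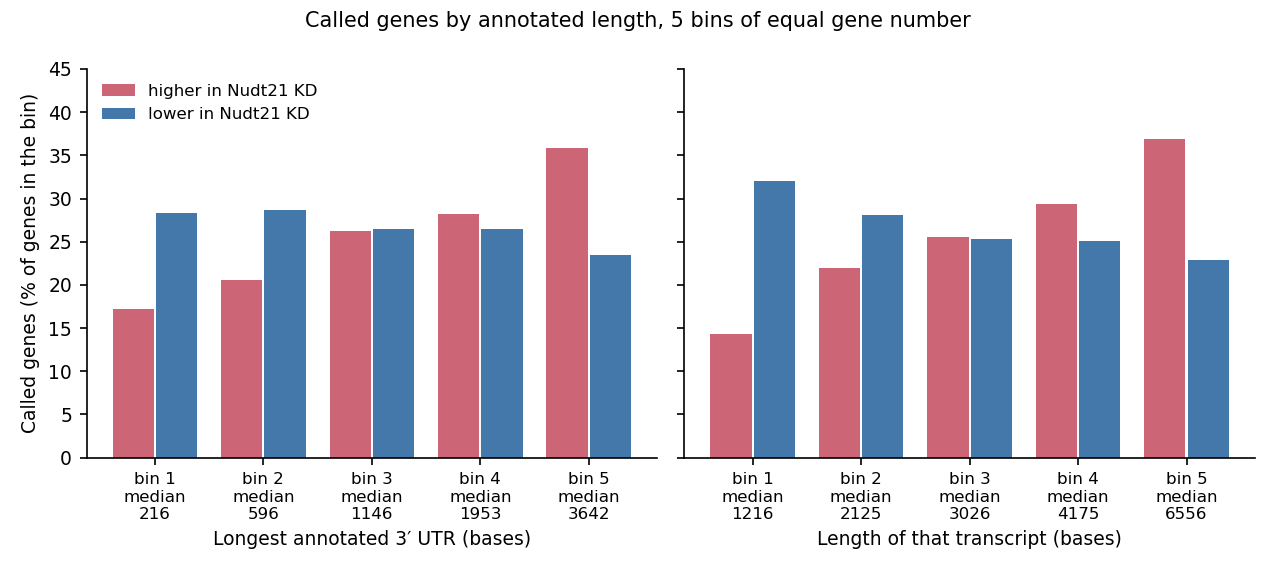
Share of genes called higher and lower in Nudt21 KD, in percent of the genes in the bin, in 5 bins of the longest annotated 3′ UTR (left) and of the length of that transcript (right), in bases, ordered from the shortest to the longest bin. The share called higher climbs from 17.2% to 35.8% with 3′ UTR length and from 14.3% to 36.9% with transcript length.

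Proliferation genes did not lean to a side. Of 26 cyclins and proliferation genes, 6 rose, 6 fell and 14 were not called (median 0.06). Ccnb1, a mitotic cyclin, rose from 267 and 253 CPM to 486 and 432 CPM, whereas its relative Ccnb2 fell from 128 and 123 CPM to 89.4 and 91.8 CPM. Ccne2, Aurka and Bub1 rose by 0.54, 0.44 and 0.33, and Birc5 (survivin) and Cdk1 fell by 0.76 and 0.34 on the log2 scale. Of 10 cell cycle inhibitors, 2 rose, 4 fell and 4 were not called (median −0.17). Cdkn1c fell 6.36-fold, from 53.9 and 53.5 CPM to 7.45 and 9.83 CPM, and Cdkn2b by 0.55 on the log2 scale. Rb1, the retinoblastoma gene, rose from 58.5 and 58.3 CPM to 116 and 101 CPM and Cdkn1b (p27) from 3.48 and 3.85 CPM to 7.41 and 9.69 CPM. Of 16 p53 targets, 6 rose and 6 fell (median −0.01), with Gdf15 (a stress-induced cytokine), Eda2r, Pmaip1 (NOXA) and Perp higher and Bbc3 (PUMA), Sesn1 and Fas lower.

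Of 41 chromatin regulator genes, 15 rose, 7 fell and 19 were not called (median 0.13). Tet2, which oxidises methylcytosine, rose from 32.9 and 33.9 CPM to 64.6 and 66.7 CPM, and Jarid2, a cofactor of Polycomb complex 2, from 43.6 and 41.7 CPM to 81.2 and 83.9 CPM. Chd1 and Ezh1 rose by 0.61 and 0.59. Cbx2, a member of Polycomb complex 1, fell by 0.78, as did the DNA methyltransferase Dnmt3b (0.63) and the remodeller Arid1a (0.33), all on the log2 scale.

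Growth factor and lineage genes were mostly lower. Of 12 genes of the insulin-like growth factor system, 10 fell, 1 rose and 1 was not called (median −1.07). Igfbp3, a secreted binding protein, fell from 1554 and 1646 CPM to 506 and 487 CPM. The ligands Igf1 and Igf2 fell from 4.75 and 3.19 CPM to 0.358 and 0.284 CPM and from 9.54 and 10.6 CPM to 2.99 and 2.84 CPM, and Irs1, a receptor substrate, rose by 0.40 on the log2 scale. Of 16 tested adipose, bone, cartilage and tendon genes, 9 fell, 2 rose and 5 were not called (median −0.57), among them Sox9 (cartilage), Tnmd (tendon), Fabp4 and Cebpa (fat), each under 10 CPM in all 4 libraries. The members that rose were Alpl and Lpl, lipoprotein lipase, from 33.5 and 30.4 CPM to 148 and 160 CPM (4.77-fold). Of 19 tested inflammatory cytokine and protease genes, 5 rose, 5 fell and 9 were not called (median −0.30). Cxcl12, a stromal chemokine, fell from 41.0 and 41.1 CPM to 8.36 and 8.42 CPM, Cxcl5, a neutrophil chemokine, fell from 11.3 and 7.20 CPM to 2.02 and 2.79 CPM, and the monocyte chemokines Ccl7 and Ccl2 rose by 0.51 and 0.40 on the log2 scale.

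The labelled cell type was checked against its markers. The summed level of 10 fibroblast markers was 10748 and 10592 CPM in the control and 4246 and 4383 CPM in Nudt21 KD, and 8 of the 10 fell, 0 rose and 2 were not called (median −1.15). Markers of other cell types were low or mixed. For endothelial cells, 2 of 8 tested genes fell, Kdr from 2.06 and 1.89 CPM to 0.325 and 0.378 CPM and Tek from 210 and 199 CPM to 182 and 169 CPM (not called without the first control library, adjusted p = 0.0752, edgeR), and the 8 summed to 203 to 213 CPM in the control and 171 to 183 CPM in Nudt21 KD. For leukocytes, 5 of 9 were tested and 2 rose, Cd68, a lysosomal protein, from 11.3 and 14.9 CPM to 105 and 102 CPM (7.79-fold) and Laptm5 from 391 and 396 CPM to 626 and 598 CPM, while the defining members Ptprc and Adgre1 were at most at 0.0748 CPM and Tyrobp and Fcer1g were at 0 in all 4 libraries. The summed level of the 9 leukocyte markers was 405 to 413 CPM in the control and 701 to 732 CPM in Nudt21 KD. Markers of skeletal muscle precursors summed to at most 6.15 CPM, of keratinocytes to at most 8.70 CPM and of germ cells to at most 1.61 CPM in any of the 4 libraries. Those of neural cells summed to 13.8 and 16.6 CPM in the control and 25.7 and 19.6 CPM in Nudt21 KD, and those of lung epithelium to 13.3 and 14.5 CPM against 19.5 and 20.4 CPM. Among these 5 lists no member fell, and Tubb3 (a neuronal tubulin), Ager (a lung receptor) and Des (desmin) rose, of which Des was not called without the first control or the first Nudt21 KD library (adjusted p = 0.383 and 0.114, edgeR). The part of cell composition in the results was not tested.

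The same contrast was read in the P-bodies sorted from these preparations. Of 15960 genes tested there, 1498 were higher (9.39%) and 1410 lower (8.83%) in Nudt21 KD. Nudt21 itself was at 107 and 115 CPM in control P-bodies and 5.96 and 5.51 CPM in Nudt21 KD P-bodies. Among genes tested in both, 1466 were called higher in both fractions, 37.5% of those higher in the cytoplasm and 97.9% of those higher in P-bodies. Likewise 1313 were called lower in both, 33.0% and 93.3% of each list, and 3 genes were called in opposite directions. The 2 control P-body libraries differed more from each other than the control cytoplasm replicates did, with a standard deviation of log2 differences of 0.402 against 0.138, over genes with at least 10 CPM. From 2 libraries it cannot be told which departs. Over 16973 genes, the first correlated with the control cytoplasm libraries at Spearman 0.986 and 0.985, and the second at 0.966 in both cases. Without the first control P-body library, 3830 genes were higher (24.6% of 15541) and 3273 lower (21.1%) in P-bodies, of which 2591 and 2119 were also called in the same direction in the cytoplasm, and 36 and 85 in the opposite direction. Without the second, 2156 were higher (13.8% of 15618) and 2034 lower (13.0%), of which 2021 and 1799 were shared and 6 and 0 were called in the opposite direction.

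Whether the knockdown acted differently on the 2 fractions was tested as a difference of differences over the 8 day 3 libraries. Of 16973 genes, 2 were called (0.0118%), Kcnq1ot1 and Xist, and 819 had an unadjusted p under 0.05. DESeq2 called 27. Without the first control P-body library 2185 genes were called, and without the second 4, so the count depends on which control P-body library is used. Both called genes are long noncoding RNAs that are known to stay on chromatin. Kcnq1ot1, the antisense RNA of the imprinted Kcnq1 locus, was at 20.4 and 18.7 CPM in control cytoplasm and 49.8 and 50.5 CPM in Nudt21 KD cytoplasm, but at 27.5 and 25.4 CPM in control P-bodies and 13.0 and 11.95 CPM in Nudt21 KD P-bodies. The difference between the fractions was 2.42 on the log2 scale (adjusted p = 0.00256, edgeR). Xist, the RNA that coats the inactive X chromosome, was at 26.6 and 21.7 CPM against 50.4 and 48.6 CPM in the cytoplasm and at 30.7 and 33.4 CPM against 16.2 and 13.4 CPM in P-bodies, a difference of 2.12 (adjusted p = 0.0170, edgeR). For both RNAs the knockdown cytoplasm was above and the knockdown P-bodies below their controls, without overlap in either fraction. Both were picked by this test on the same libraries, so this separation is not a result of its own. In the cytoplasm, 74.1% of all genes tested did not overlap. Leaving out 1 library at a time kept both differences between 1.99 and 2.50, but the Kcnq1ot1 call was lost without the second Nudt21 KD P-body library or any of the 4 cytoplasm libraries (adjusted p = 0.0578 to 0.0866, edgeR), and the Xist call without either Nudt21 KD P-body library or any cytoplasm library (adjusted p = 0.102 to 0.279, edgeR). With the preparation as a block, the adjusted p was 0.0223 for Kcnq1ot1 and 0.0793 for Xist.

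**Figure D5:**
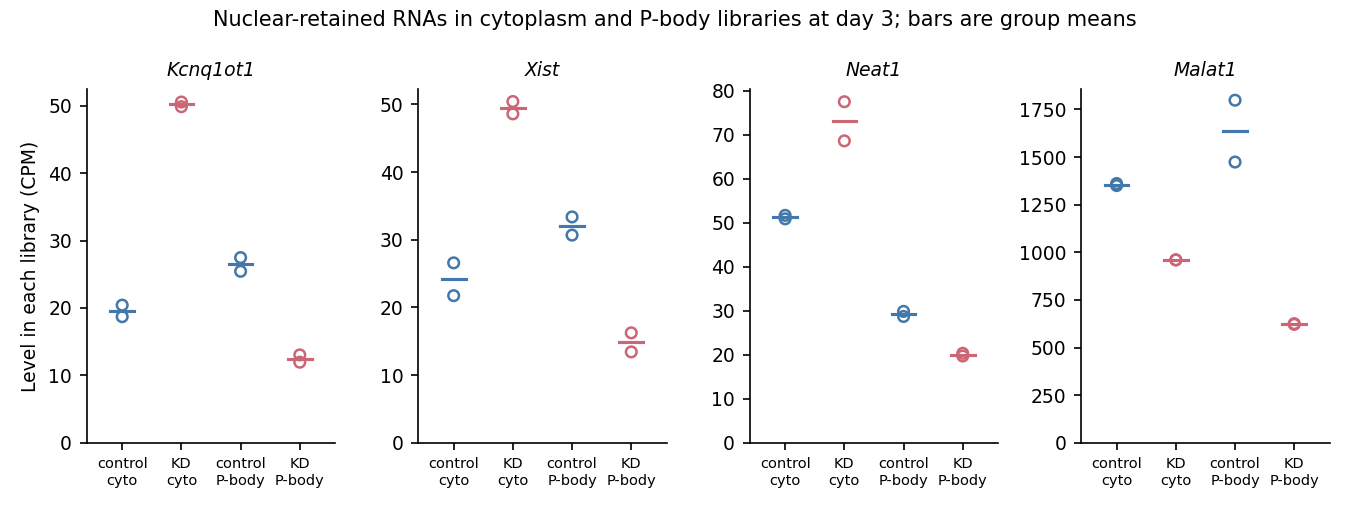
Level of 4 long noncoding RNAs in each of the 8 day 3 libraries, in CPM, by fraction and condition; points are libraries. Kcnq1ot1 and Xist are higher in Nudt21 KD than in control cytoplasm and lower in Nudt21 KD than in control P-bodies, and Malat1 is lower in Nudt21 KD in both fractions.

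Other nuclear RNAs were present in these libraries too. Neat1, the scaffold of paraspeckles, was at 50.9 and 51.6 CPM in control and 77.5 and 68.6 CPM in Nudt21 KD cytoplasm, and at 29.8 and 28.7 CPM against 19.7 and 20.3 CPM in P-bodies. Malat1, an RNA of nuclear speckles, was at 1361 and 1350 CPM against 960.2 CPM in both Nudt21 KD libraries in the cytoplasm. Neither was called in the test between the fractions, and both were chosen after their values were seen. Of 14 long noncoding RNAs (nuclear-retained, imprinted or hosts of small nucleolar RNAs), 7 rose, 5 fell and 2 were not called in the cytoplasm (median 0.39). In P-bodies 0 rose and 5 fell (median −1.26). The shares over all genes tested were 24.6% higher and 25.0% lower in the cytoplasm, and 9.39% and 8.83% in P-bodies. In the test between the fractions, Kcnq1ot1 and Xist alone were called, so the counts do not show a difference for the list. H19, an imprinted RNA of growing tissues, fell from 72.9 and 67.1 CPM to 14.9 and 15.3 CPM in the cytoplasm (4.69-fold), and Meg3 and Rian, from another imprinted cluster, fell by 1.57 and 0.96 on the log2 scale. Snhg12, a host of small nucleolar RNAs, rose by 0.95 on the log2 scale. The share of residual nuclear RNA in these libraries was not tested.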

How the data were processed

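Day 3 cytoplasm RNA was sequenced from Smart-seq libraries. The authors aligned read pairs with hisat2 to mm10 and deposited featureCounts reads over UCSC refGene exons. The deposited values are expected counts rather than whole reads for 20.0% to 22.9% of the entries of a cytoplasm library, and were rounded. How reads shared between genes were divided and whether strand was used are not given in the sources used here (the submitters' processing notes name HISAT2, featureCounts, DESeq2 and mm10). Tables of the authors' own comparisons hold fold changes and adjusted p-values and were not used. The count table left 0 columns unused and had 0 rows without a gene name.

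A sum of 10 or more reads in the 4 libraries was required of a gene, and genes were tested two-sided with edgeR's quasi-likelihood test (version 4.0.16, R 4.3.3, TMM factors 0.992 to 1.01) without a replicate block and called at a Benjamini-Hochberg adjusted p under 0.05. SEs come from the same statistic. P-bodies were tested alike, and the difference between fractions as an interaction over 8 libraries. CPM use the library total. Scripts were tested on simulated data. Deviations of same-numbered control and Nudt21 KD cytoplasm libraries correlated at 0.037, so numbers were not read as pairs between the conditions.

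Named genes are Nudt21, Cpsf6 and Cpsf7, the 12 genes per direction with the largest log2 fold change (called, at least 10 CPM in the higher group, groups apart), the 8 per direction with the largest CPM difference, and up to 4 called members per direction of each list, or the members with the most CPM where fewer than 4 were called. Some named genes with values near the threshold are left out of the text, and some others are not reported here. The comparison, gene lists and members were chosen with earlier results of these data known. Alternatives were DESeq2 (version 1.42.0), its size factors, filterByExpr, no filter, unrounded values, the block, a fit of 20 libraries and leaving out each library. Others were chosen after seeing the data, the median in place of the longest 3′ UTR, and the P-body comparison without each of its control libraries. 3′ UTRs and transcripts are those of GENCODE M21, and promoters, positions and microRNAs those of RefSeq. Figures used matplotlib (version 3.10.9, Python 3.11.15).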

Additional observations from a re-analysis of the deposited data

Results flagged for a closer look

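A test of the difference itself, without the preparation as a block, called 2 genes between the fractions. With that block, Kcnq1ot1 alone was called and Xist was not (adjusted p = 0.0793, edgeR). Both calls were lost in some fits that left out a single library. The difference between the cytoplasm and the P-body log2 fold change was 2.42 for Kcnq1ot1 and 2.12 for Xist, with the levels, the adjusted p and the values without single libraries given in the report.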

How the results depend on the processing

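In the cytoplasm, DESeq2 called 6925 genes, DESeq2 size factors 7951, filterByExpr 8000, no filter 8069 and unrounded values 7972, against 7934. Without single libraries 6834 to 7553 genes were called, 3419 to 3802 higher and 3415 to 3751 lower, where the lone library of a group is assumed to vary like the others. The fit of all 20 libraries, which shares 1 estimate of the spread over cell types, called 4877 (2356 higher, 2521 lower), and 61.1% of the genes called with 4 libraries were called again. No called gene changed sign under any of these alternatives. Of 196 genes named in the text, 173 kept their call or lack of one under all of them, and 21 lost their call in the 20-library fit (Ager, Anxa2, Bub1, Ccne2, Cdh2, Cnot7, Cpsf7, Dnmt3b, Fhl1, Ftl1, Hsp90b1, Hspa8, Hspb1, Irs1, Ndrg1, Perp, Sesn1, Srf, Tdgf1, Tek and Xrn1). Named genes were mostly picked for large changes, and some near the threshold were left out of the text, so their stability does not describe genes at large. Requiring a difference of at least 1 on the log2 scale left 2319 genes (1155 higher, 1164 lower). With the replicate block 8038 were called, and as the numbers are not known to pair the libraries, this block is not read as a paired design. List medians moved by at most 0.01 with DESeq2 size factors. With the median in place of the longest 3′ UTR, the share that rose ran from 18.9% to 34.7% over the 5 bins.

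P-body calls numbered 2908 (DESeq2 3492, replicate block 2932) and 1365 to 7103 without single libraries. They numbered 7103 without the first and 4190 without the second control P-body library, 1365 without the first and 1501 without the second Nudt21 KD P-body library. For the difference between fractions, DESeq2 called 27 genes and the replicate block 1, and leaving out single libraries gave 0 to 2185, where 2185 came without the first control P-body library, 4 without the second, and 0 without the second Nudt21 KD P-body library or any cytoplasm library. The cause was not tested. Depth limits genes with few reads: Cldn4, Ocln, Tdgf1, Lin28b and Nanog rest on 0 to 3 reads in 1 of the groups.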
